A study of Mus musculus with 24 samples.

Results

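The genes described here encode the protein components of the cytosolic ribosome. They were chosen by name: mouse symbols built as Rpl or Rps followed by a number, with or without a final a or l, and the stalk genes Rplp0, Rplp1 and Rplp2. Of 79 symbols of this form among 54087 in the count table, 78 held at least 100 counts summed over all 24 libraries and were kept, 48 for the large (60S) and 30 for the small (40S) subunit. The threshold fell between Rpl23a, kept with 138 counts, and Rpl10l, left out with 12. Rpsa, which encodes a small subunit protein, is not spelled in that form and is given beside the members where it is named.

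The libraries are RNA-Seq of dorsal skin from mouse embryos at embryonic stage E18.5. Mice lacking the Dsg1a, Dsg1b and Dsg1c gene cluster had been made by CRISPR/Cas9 editing of C57BL/6J zygotes and came from 1 founder, so the null allele is a single deletion. Wild-type (WT) embryos carried no deleted allele, heterozygous (HET) embryos 1 and null (KO) embryos no intact one, and embryos of both sexes were used without any treatment. Each genotype had 8 libraries, which came to 5 columns after libraries of one title number were summed. A column is called here by genotype and replicate, and the labels do not say what the number stands for. If the columns are not separate embryos, the p-values measure only the spread between these samples.

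A ribosome holds 1 copy of nearly every one of these proteins, and cells make them in step with ribosomal RNA. The transcripts are short, abundant in growing cells and characterised by a run of pyrimidines at their first bases (the 5′ terminal oligopyrimidine, or TOP, motif), through which mTOR signalling regulates their translation. Almost every ribosomal protein gene of mammals has processed pseudogenes, copies of the spliced transcript elsewhere in the genome, and a read that fits such a copy as well as the gene may be dropped or assigned to either. Epidermal keratinocytes divide in the basal layer and keep a large translation machinery as they differentiate.

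Depth ran from 8.98 M to 20.97 M per library and from 15.3 M to 33.7 M per column (M, mega). The summed Dsg1 genes were at 806 ± 112 CPM (SD, n = 5; CPM, counts of a gene scaled to a common library size by TMM factors, in parts per M) in WT, 422 ± 51.5 in HET and 0.548 ± 0.343 in KO, as the genotype labels have it. One title number stood apart before any result was taken: the 2 libraries of number 35, WT replicate 2, differed by a chi-square of 15.6 per degree of freedom, against 1.59 to 1.86 in the other 8 numbers with 2 libraries. One of them held 338 CPM of Y-linked transcripts and 0.275 CPM of Xist, the other 0.157 and 574 CPM. By the same chi-square the first was nearest to a HET replicate 1 library (5.34). The column WT replicate 2 thus sums a library of a male and another of a female, and results are also given without it. Markers of keratinocytes summed to 56872 to 76812 CPM in WT and 70001 to 97979 in KO, and those of fibroblasts to 24841 to 39507 and 16230 to 31878. Erythroid markers were at 1652 to 5157 CPM in WT and 3106 to 9047 in KO, with 8 of 9 listed genes in the table. Skeletal muscle markers were at 13818 to 23447 CPM in WT and 10439 to 20523 in KO, and immune markers at 169 to 220 and 159 to 234. The ranges of WT and KO overlapped for each of these cell type lists, and no listed gene in the table was at 0. In whole skin, fewer cells of a type and less RNA per cell cannot be told apart.

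The sequences below illustrate how far members share sequence with other annotated genes. The coding sequence of Rpl38, a large subunit protein required for translation of some Hox messages, is printed because all of its 164 windows of 50 bases, the read length named in the study's methods for one of its sequencers, are also found in the pseudogene Rpl38-ps2. Rpl39 and its paralog Rpl39l, which is best known from the testis, are printed because they differ at 23 of 156 coding positions (85.3% identity), shown in capitals. All 107 windows of Rpl39l are unique, whereas Rpl39 has 17 unique windows of 107, with 59 found in Gm12013. The genes Rpl38, Rpl39 and Rpl39l lie at chr11:114668524-114672331 (plus strand), chrX:37082520-37085402 (minus strand) and chr16:10170226-10174911 (plus strand) of GRCm38. These spans reach beyond the sequences printed, which are the spliced coding exons of GENCODE vM21.
Rpl38: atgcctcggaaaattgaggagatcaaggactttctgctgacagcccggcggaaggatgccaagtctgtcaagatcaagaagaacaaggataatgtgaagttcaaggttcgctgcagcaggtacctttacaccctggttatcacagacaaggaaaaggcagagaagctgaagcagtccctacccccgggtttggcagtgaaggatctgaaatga
Rpl39: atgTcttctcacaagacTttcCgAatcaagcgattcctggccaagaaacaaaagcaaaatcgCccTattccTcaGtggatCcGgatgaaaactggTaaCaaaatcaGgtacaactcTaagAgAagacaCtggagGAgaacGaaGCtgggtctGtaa
Rpl39l: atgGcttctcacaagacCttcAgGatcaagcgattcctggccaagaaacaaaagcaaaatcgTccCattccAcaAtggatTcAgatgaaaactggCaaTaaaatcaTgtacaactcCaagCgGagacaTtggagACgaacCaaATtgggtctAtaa

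Around the transcription start, the 30 bases from 20 before to 10 after the RefSeq start (GRCm38.p6) were searched on the sense strand for a run of 8 or more C or T letters. The table held a start for 57 of the 78 genes, and 25 of them (43.9%) had such a run, against 12.4% of all 27025 genes with a start. A run of 8 or more A or G letters, searched in the same way, was present in 5.26% and 12.8%. Examples with long and short runs are printed with the longest run in capitals. They are Rpl4 at chr9:64173367-64173396, Rpl31 at chr1:39367831-39367860, Rpl38 at chr11:114668560-114668589 and Rpl3l, a paralog of Rpl3 known from striated muscle, at chr17:24727806-24727835, all on the plus strand. The first 3 had runs of 14, 13 and 10 bases and Rpl3l one of 4. The runs of Rpl4 and Rpl31 lie wholly before the annotated start and that of Rpl38 spans it, so they are not shown to be TOP motifs. Rps13, whose window is not printed, had a longest run of 2. A run is a match of letters in this window only.
Rpl4: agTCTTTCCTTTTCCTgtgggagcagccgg
Rpl31: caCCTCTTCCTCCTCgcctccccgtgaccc
Rpl38: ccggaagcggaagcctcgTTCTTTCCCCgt
Rpl3l: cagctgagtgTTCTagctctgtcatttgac

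Counts of single members spanned from 138 for Rpl23a to 780771 for Rps3, although their proteins are needed in nearly equal numbers. In WT, the members highest per kilobase of transcript included Rplp1 (2446 CPM per kilobase), Rps14 (1859), Rpl8 (1639) and Rpl22 (1354). The lowest were Rpl23a (0.530), Rpl24 (0.968), Rpl38 (1.33), Rps29 (1.52) and Rps16 (1.90). The order went along with how much of the coding sequence is found in no other annotated gene. Of 77 members with a coding sequence of 50 bases or more, 27 (35.1%) had no such window, against 0.997% of 14245 tested coding genes. These 27 had a median WT level of 7.94 CPM, the 37 with some but under 50% had 146 CPM, and the 13 with 50% or more had 624 CPM. Over these genes, as a description, Spearman's rho of WT level with the share of unique windows was 0.77, and with coding length 0.08. With windows of 100 bases, 21 of 76 members still had none.

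**Figure D1:**
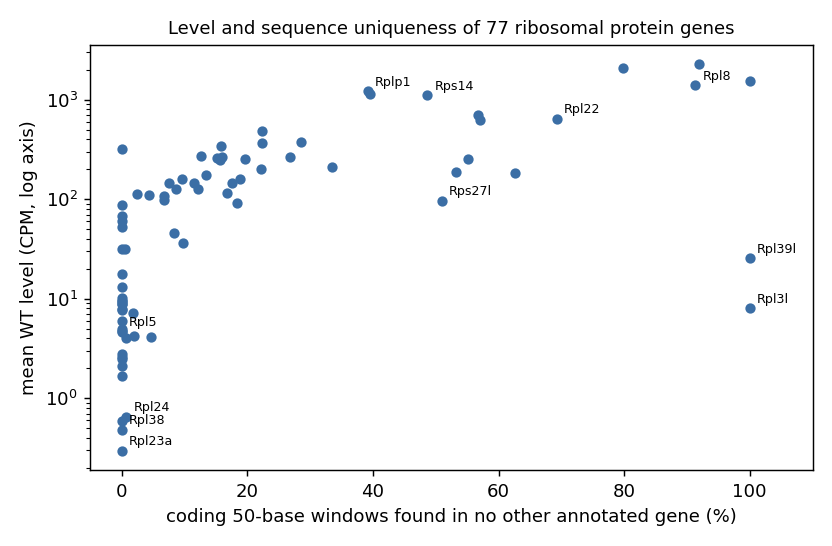
Mean WT level of 77 ribosomal protein genes (CPM, log axis) against the percent of their coding windows of 50 bases found in no other annotated gene. Points at 0% run from 0.297 CPM (Rpl23a) to 316 CPM (Rpl41), while members at 50% or more have a median of 624 CPM, with Rpl39l (25.7) and Rpl3l (8.10) below the rest.

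Several members departed from that order. Of those without a unique window, Rpl15 (87.9 CPM), Rpl13 (68.6), Rpl27a (60.2), Rps28 (52.9) and Rpl12 (31.9), named after their values were seen, stood above the 7.94 CPM of their class. Rpl41, which encodes the shortest ribosomal protein and has only 29 coding windows, none unique, stood at 316 ± 112 CPM. Rpl3l and Rpl39l, both wholly unique, were at 8.10 ± 3.61 and 25.7 ± 5.92 CPM in WT, far below Rpl3 (111 ± 35.4) and Rpl39 (265 ± 91.2). Rps27l, a p53 target and paralog of Rps27, had 96.2 ± 21.02 CPM and 51.0% unique windows, and Rps27 had 2.49 ± 0.265 CPM with none. All 206 windows of Rps27 are also in Rps27rt, so coding reads of the 2 genes cannot be told apart. Pseudogene symbols of the family, those with -ps in the name (254, of which 224 had a count), summed to 111 ± 13.3 CPM in WT. The 78 members summed to 19780 ± 2258 CPM. Genes under other names that share windows with members, such as Gm10288 with Rpl11 and Gm12918 with Rpl13, are not in the pseudogene sum. The authors' treatment of reads with several matches was not tested, since no source used here gives it.

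The main comparison asked whether loss of Dsg1 moved the set. Summed member levels were 23115, 18640, 18580, 17545 and 21022 CPM in WT replicates 1 to 5, 17197, 21313, 19086, 18171 and 19106 CPM in HET, and 13844, 17794, 17240, 14709 and 20120 CPM in KO. KO replicates 1 and 4 lay below every other column, KO replicate 3 just below the WT range, and KO replicates 2 and 5 within it. The means were 19780 ± 2258 (SD, n = 5), 18975 ± 1525 and 16741 ± 2515 CPM, so that KO stood at 84.6% and HET at 95.9% of WT. As a share of all counts the members took 1.74% to 2.38% in WT and 1.37% to 2.04% in KO, with 95% Wilson intervals of at most 0.0067 percentage points on either side, which cover counting error only. The spread between columns was therefore far larger than counting error. A p for this sum is not given because it is a score over chosen genes.

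**Figure D2:**
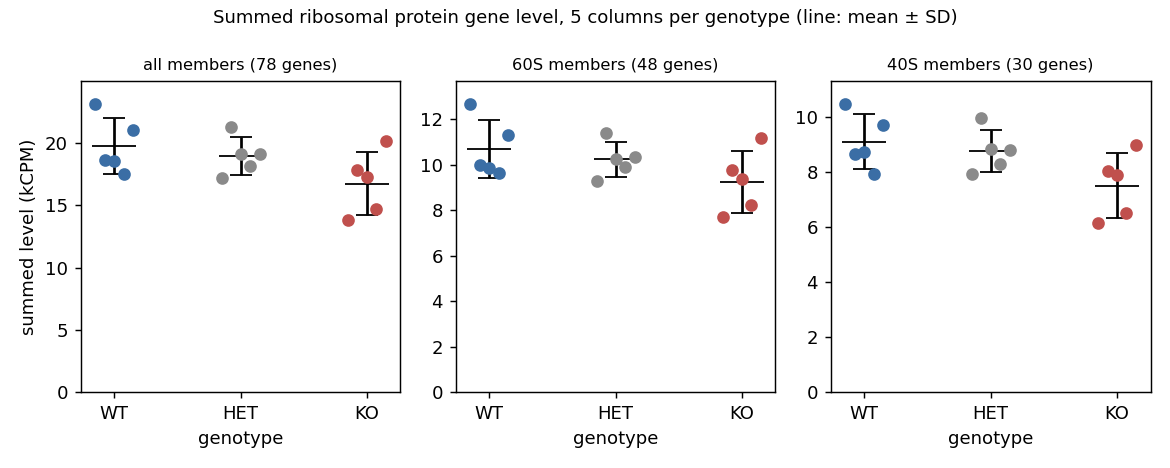
Summed level (kCPM, 1000 CPM) of all 78, the 48 large subunit (60S) and the 30 small subunit (40S) genes in each of 5 columns per genotype, with the mean and SD. The KO means of 16741, 9236 and 7506 CPM lie below the WT means of 19780, 10685 and 9096 CPM, and the columns of the genotypes overlap in every panel.

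Both subunits had lower means in KO. Large subunit genes summed to 10685 ± 1280 CPM in WT and 9236 ± 1356 in KO (86.4% of WT), and small subunit genes to 9096 ± 995 and 7506 ± 1168 (82.5%). The 4 most counted genes, which hold 36.7% of all member counts, stood at 85.4% of WT in KO and the other 74 at 84.2%. Pseudogene symbols stood at 88.4%. The sum thus did not rest on the most abundant members alone.

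Gene by gene, 71 of 78 members (91.0%) were lower in KO than in WT, and 51.4% of all 17094 genes tested were lower. The members' median log2 difference was -0.25 (range -0.99 to 0.81), beside -0.01 for all genes. Large subunit genes had a median of -0.23 and small subunit genes of -0.26. By the edgeR quasi-likelihood test, adjusted by Benjamini-Hochberg over all genes, 0 members passed an adjusted p of 0.1, where 1.15% of all genes did. With the further demand of a log2 fold change of 1 the shares were 0 members and 0.322% of genes. The smallest adjusted p among the members was 0.107. Before adjustment, 39 members were lower at a p below 0.05, none was higher, and 9.18% of all genes were lower at that p. In 5 members all KO columns lay below all WT columns (6.41%), which held for 1.76% of all genes. The members varied together from column to column, so these counts are not counts of independent results.

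**Figure D3:**
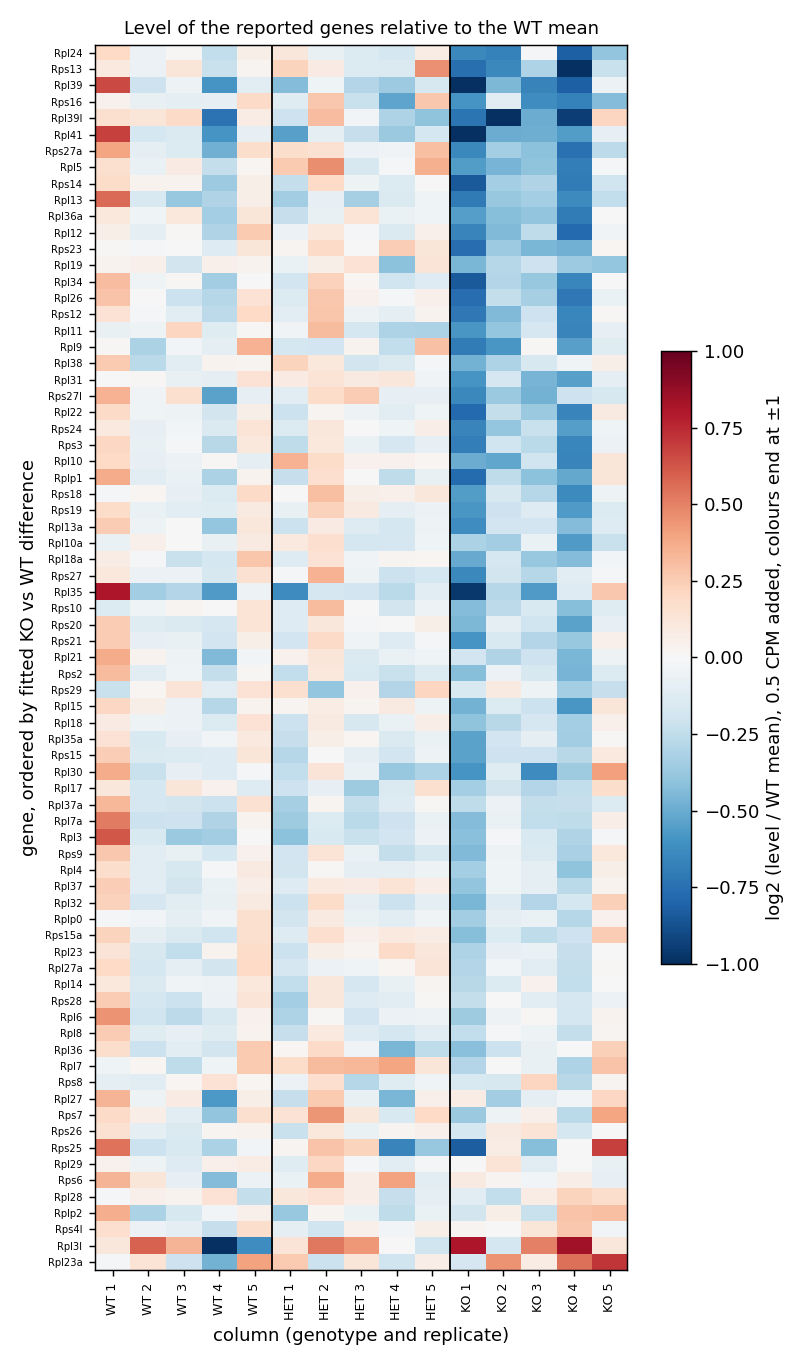
Level of the reported genes in each of the 15 columns as log2 of the ratio to its WT mean (0.5 CPM added; colours end at ±1), genes ordered by the fitted KO minus WT difference from -0.99 (Rpl24) to 0.81 (Rpl23a). KO replicates 1 and 4 have the lowest medians over all members (-0.47 and -0.36, with 73 and 70 of 78 below the WT mean), KO replicates 2 and 3 lie at -0.18 and -0.20 (69 and 68 below) beside WT replicate 4 at -0.17 (69 below), and KO replicate 5 lies at 0.00 (39 below).

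Among large subunit genes, Rpl31, which lies at the rim of the exit tunnel, had the smallest p. It was at 17.5, 17.7, 16.6, 16.4 and 19.4 CPM in WT and at 11.5, 15.6, 12.6, 11.9 and 16.3 CPM in KO. Every KO column was below every WT column. The log2 difference was -0.37 (SE 0.10, edgeR adjusted p = 0.107). HET columns, at 17.1 to 19.3 CPM, lay beside WT. All 329 coding windows of Rpl31 are shared with Rpl31-ps8.

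Rpl24, a large subunit protein that contacts the small subunit, had the largest difference downwards, on very few reads. Its WT columns held 13 to 21 counts, or 0.825, 0.609, 0.664, 0.473 and 0.705 CPM, and its KO columns 3 to 15 counts, or 0.240, 0.221, 0.638, 0.154 and 0.381 CPM. KO replicate 3 lay in the WT range and the other 4 below it. The log2 difference was -0.99 (SE 0.31, edgeR adjusted p = 0.128). Of its 425 coding windows 3 are unique. Rpl24 was the one member that passed both thresholds under any other setting tried.

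Among small subunit genes, Rps13, Rps14 and Rps24 had the smallest p. Rps13 was at 4.42, 3.91, 4.49, 3.42 and 4.18 CPM in WT and at 2.22, 2.43, 3.19, 1.49 and 3.43 CPM in KO, with 4 KO columns below all WT columns (log2 difference -0.68, SE 0.20, edgeR adjusted p = 0.113). Of its 407 coding windows 3 are unique and 404 are shared with Rps13-ps2, which stood at 16.9 ± 3.57 CPM in WT. Rps14, on the platform of the small subunit and lost in 5q- syndrome of the bone marrow, was at 1258, 1138, 1134, 865 and 1154 CPM in WT and at 619, 876, 903, 682 and 964 CPM in KO. Here 2 KO columns lay below all WT columns. Its log2 difference was -0.46 (SE 0.13, edgeR adjusted p = 0.112), and it rests on 13270 counts or more in each KO column. Rps24, mutated in some patients with Diamond-Blackfan anaemia, was at 396, 350, 364, 335 and 406 CPM in WT and at 235, 284, 317, 252 and 360 CPM in KO (log2 difference -0.35, SE 0.11, edgeR adjusted p = 0.120). Only KO replicate 5 reached the WT range.

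Rps19, the gene most often mutated in Diamond-Blackfan anaemia, was among the 5 without overlap, at 233 to 288 CPM in WT and 169 to 232 in KO (log2 difference -0.31, SE 0.11, edgeR adjusted p = 0.153). Rpl19 and Rps16 did not overlap either, each below 3 CPM on average in WT. Rps16, one of the lowest per kilobase, was at 1.93 to 2.47 CPM in WT and 1.13 to 1.92 in KO. Rpl19 is named here after its values were seen.

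The 7 members that were not lower included Rpl23a, Rpl28, Rpl3l, Rplp2, Rps4l and Rps6. Rpl23a, a docking site for nascent chain factors at the tunnel exit, had 2 to 13 counts per WT column and 7 to 17 per KO column, at 0.297 ± 0.183 and 0.524 ± 0.244 CPM (log2 difference 0.81, SE 0.44, edgeR adjusted p = 0.319). Rpl3l was at 8.78, 12.4, 10.4, 3.78 and 5.09 CPM in WT and at 14.5, 7.12, 11.7, 14.9 and 8.81 CPM in KO (0.49, SE 0.29, edgeR adjusted p = 0.359). The groups overlapped widely for both. Rps4l (log2 difference 0.08, SE 0.09) had an edgeR adjusted p of 0.631. Rps4l has no coding sequence in the transcript used here.

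The stalk proteins recruit elongation factors to the ribosome. Rplp0, its base, was at 1148 ± 79.6 CPM in WT and 1040 ± 116 in KO (log2 difference -0.14, edgeR adjusted p = 0.390). Rplp1 was at 1576, 1132, 1166, 981 and 1250 CPM in WT and at 714, 1026, 918, 854 and 1329 CPM in KO (-0.33, SE 0.16, edgeR adjusted p = 0.254), so that KO replicate 5 lay above all WT columns but one. Rplp2, its partner in the stalk dimers, was at 211 ± 38.5 and 221 ± 38.0 CPM (0.06, edgeR adjusted p = 0.813). Whether Rplp1 and Rplp2 differed from each other was not tested.

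Rpl5 and Rpl11 form with 5S RNA the particle that binds Mdm2 and so stabilises p53. Rpl5 was at 4.71 ± 0.537 CPM in WT and 3.43 ± 0.742 in KO (log2 difference -0.46, SE 0.17, edgeR adjusted p = 0.163), on 53 to 159 counts per column. Rpl11 was at 10.2 ± 1.01 and 7.84 ± 1.44 CPM (-0.38, SE 0.15, edgeR adjusted p = 0.188). In each gene 4 KO columns were below all WT columns, KO replicate 5 being the exception. Neither has a unique coding window. Rpsa, the laminin receptor and small subunit protein outside the members, was at 26.1, 24.1, 21.6, 19.5 and 25.1 CPM in WT and at 17.7, 19.9, 19.5, 14.6 and 20.4 CPM in KO (-0.34, SE 0.11, edgeR adjusted p = 0.137).

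The paralogs with restricted expression had differences of both signs. Rpl39l was at 28.7, 27.99, 29.4, 15.2 and 26.99 CPM in WT and at 15.3, 9.74, 18.05, 13.1 and 29.9 CPM in KO (log2 difference -0.58, SE 0.26, edgeR adjusted p = 0.238). Rpl39 was at 418, 229, 255.6, 175 and 245 CPM in WT and at 110, 194, 166, 150 and 254 CPM in KO (-0.60, SE 0.22, edgeR adjusted p = 0.169). In both genes WT replicate 4 fell among the KO columns and KO replicate 5 among or above the WT columns. Rps27l was at 66.2 to 123 CPM in WT and 61.4 to 86.2 in KO (-0.36, SE 0.14, edgeR adjusted p = 0.189), and Rps27 had a log2 difference of -0.29 (SE 0.17). Rpl3 was at 111 ± 35.4 and 98.8 ± 11.99 CPM (-0.17, SE 0.16), beside the higher KO mean of Rpl3l, and Rpl10 at 7.94 ± 0.720 and 6.25 ± 1.54 CPM (-0.35, SE 0.15). None of these passed the adjusted threshold.

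The count of passing members changed most with 2 columns and with the tool. Without KO replicate 5, which had the highest KO sum of 20120 CPM, 33 of 78 members (42.3%) had an adjusted p of 0.1 or less in the lower direction and 0 in the higher, while 10.9% of all genes passed. Without WT replicate 4, which had the lowest WT sum of 17545 CPM, 24 (30.8%) were lower, while 9.74% of all genes passed. DESeq2 found 14 (17.9%) lower, against 3.34% of genes lower by that test. Limma-voom found 4 (5.13%), all lower, where 2.89% of genes passed in either direction. Without number 35 (WT replicate 2) 0 members passed, 72 were lower and the median was -0.27. Other settings made the median smaller in size, with 0 members passing in each. For these settings and for the fit without number 35 the share of all genes passing is not given here. The counts of 0 can therefore not be set beside it. It was -0.16 in title format 1 alone, -0.18 without WT replicate 1, -0.19 without KO replicate 1 and -0.20 without KO replicate 4.

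Members are short transcripts, and log2 differences ran with transcript length across the whole table. The members' median length was 756 bases (345 to 3706) and that of all genes tested with a length 2898 bases. Other genes of at most 500 bases had a median KO minus WT difference of -0.22 and those of over 6000 bases one of 0.12. In the bin up to 500 bases 13 members had a median of -0.29. In the bins of 500 to 750, 750 to 1000 and 1000 to 1500 bases, 24, 19 and 16 members had medians of -0.31, -0.18 and -0.14, beside -0.14, -0.10 and -0.09 for the other genes. Members were thus lower than other genes of like length in each of these bins, by less than they were below all genes. The few longer members were lower as well, by a wider margin. In the bin of 1500 to 2000 bases 4 members had a median of -0.30, beside -0.05 for the other genes. The single members at 2000 to 3000 and 3000 to 4000 bases had -0.46 and -0.26, beside -0.02 and 0.03. No test was made of this. When a trend on length was taken out of each column, the members' median became -0.11 and 57 of 78 were lower, where 51.6% of all genes were, with 0 at an adjusted p of 0.1 or less. The share of all genes at that threshold is not given for this fit. Among the members alone, rho of the difference with length was 0.20 and with the share of unique windows 0.23. The part of transcript length in the KO values was not tested beyond this. The part of keratinocyte, fibroblast, erythroid and skeletal muscle markers was not tested. Sums of the first 2 lists were 66816 ± 7785 and 30151 ± 5510 CPM in WT and 79041 ± 10900 and 25556 ± 5815 in KO. In KO, 7 of 8 keratinocyte markers had higher levels (median log2 difference 0.16), all 8 fibroblast markers lower levels (-0.19) and 7 of 8 erythroid markers higher levels (0.54), with smallest edgeR adjusted p of 0.102, 0.267 and 0.350. Skeletal muscle markers were lower in 9 of 10 genes (-0.15) and immune markers in 4 of 8 (-0.04), with smallest edgeR adjusted p of 0.445 and 0.178.

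**Figure D4:**
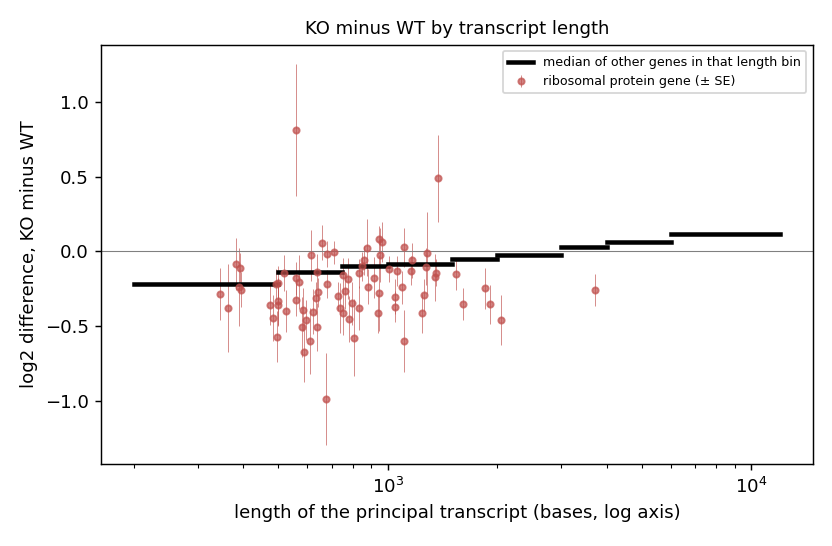
Fitted log2 difference KO minus WT (with SE) of each of the 78 genes against the length of its principal transcript (bases, log axis), with the median of all other genes in each length bin as black lines. The black lines climb from -0.22 at up to 500 bases to 0.12 over 6000 bases, and most points lie below the line of their bin. The ends of the first and last line are set for drawing only.

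HET was compared with WT in the same fit. A total of 51 members were lower and 27 higher in HET, where 49.1% of all genes were lower, and the median was -0.04 (range -0.27 to 0.27). By edgeR 0 members passed an adjusted p of 0.1, as did 0.0% of all genes. At an unadjusted p below 0.05, 0 members were lower (0.755% of all genes) and 1 higher (0.825%). That member was Rpl7, with a log2 difference of 0.27 and an unadjusted edgeR p of 0.0336, named after its values were seen. In no member did all HET columns lie below all WT columns, which held for 0.234% of genes. In libraries of the first title format alone the median turned to 0.15, with 4 members lower.

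KO against HET, which shares the KO columns with the first comparison and is no independent repeat of it, gave 65 members lower where 50.7% of all genes were, with a median of -0.22. By edgeR 0 members passed an adjusted p of 0.1, where 0.333% of genes did, and 27 (34.6%) were lower at an unadjusted p below 0.05, where 7.87% of genes were. Rpl31 again had the smallest p (log2 difference -0.45, adjusted p = 0.111). Rpl5 stood at 5.49 ± 1.05 CPM in HET (-0.68, edgeR adjusted p = 0.129), and Rps13 at 4.46 ± 0.896 CPM (-0.81, edgeR adjusted p = 0.129). At an adjusted p of 0.1 or less DESeq2 found 12 members (15.4%), where 4.84% of genes passed, and limma-voom 2 (2.56%), where 0.456% did, all of them lower. With a trend on length taken out the median was -0.07 and 50 members were lower, where 50.9% of genes were.

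Within a genotype the members moved together. The SD of log2 CPM between columns of one genotype had a median of 0.20 over the members (0.10 to 0.50), close to 0.21 for all genes tested. At a mean of 100 CPM or more it was 0.18 over 37 members and 0.17 over 2015 other genes. Pearson's r of each member with the median of the others, over the 15 columns after genotype means were taken out, had a median of 0.79 and was above 0.5 for 67 of 78. It was below 0 for Rpl3l (-0.16), Rps29 (-0.14) and Rpl28 (-0.01). These members share libraries and scaling, so r is a description. Rpl3l (0.50), Rps25 (0.45) and Rpl39l (0.44) had the largest SD and Rpl29 (0.10) the smallest. WT replicate 1 was high in most members (11 of 78 below the WT mean), with Rpl35 at 81.0 CPM beside 30.9 to 44.3 in the other WT columns and Rps25 at 10.7 beside 5.68 to 7.05.

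The libraries come in 2 title formats, 9 in the first and 15 in the second, and 9 numbers have a library in each. The same number can thus be compared with itself, except that the 2 libraries of number 35 differed in Y-linked transcripts and Xist. By these markers 1 of the 2 is of a male and the other of a female, so that pair is not of 1 embryo. The pair is part of the fit below unless left out by name. The labels do not say what the formats are. In 8 of the 9 numbers the members' median was 0.02 to 0.05 higher (log2) in the second format. In number 35 it was 0.23 higher, with sums of 16419 and 20208 CPM. With the number as a block, 56 of 74 members tested were higher in the second format, where 49.8% of all genes were, with a median of 0.06. Without number 35 the median was 0.02 and 50 were higher, where 51.3% of genes were. At an adjusted p of 0.1 or less by edgeR 23 (31.1%) were higher, where 3.2% of all 15372 genes were, and 1 (1.35%) lower, where 3.95% were. None passed a log2 difference of 1. Without the block 0 members passed by edgeR, where 0.0% of all genes were higher and 0.026% lower at that threshold. Without number 35 the edgeR count was 34 of those tested, with 26 (35.1%) higher, where 7.92% of all genes were, and 8 (10.8%) lower, where 8.0% were.

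The members with the largest differences between formats spanned low to high counts, from 15 to 63 per library for Rps27 to 2002 to 5946 for Rps19. Rpl30 ran from 68.6 to 116 CPM (median 96.2) in the first and from 82.4 to 142 CPM (median 117) in the second format and was higher in 9 of 9 numbers (log2 difference 0.31, edgeR adjusted p = 1.54e-10). Rps25 (0.32, edgeR adjusted p = 0.0429) and Rpl35 (0.29, edgeR adjusted p = 9.97e-05) were higher in 8 of 9. Rps19 was the one that was lower, in 8 of 9 numbers, with medians of 242 and 224 CPM (-0.11, edgeR adjusted p = 0.00369). Rpl29 (-0.11) and Rps27 (-0.16) did not pass. Other genes of at most 500 bases had a median of 0.11 between formats, the same as the members of that length (0.11). In the bins of 500 to 750, 750 to 1000 and 1000 to 1500 bases the medians were 0.06, 0.06 and 0.03 for members and 0.05, 0.03 and 0.01 for other genes, and no test was made of this. With a length trend removed, 41 of 74 members (55.4%) were higher, where 50.8% of all genes were, and 33 lower, with a median of 0.02. The count at an adjusted p of 0.1 or less by edgeR was then 23, with 17 higher (3.21% of all genes) and 6 lower (3.86%). A difference between libraries of one number is thus of the size of some genotype differences of single members, and each genotype holds libraries of both formats.

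**Figure D5:**
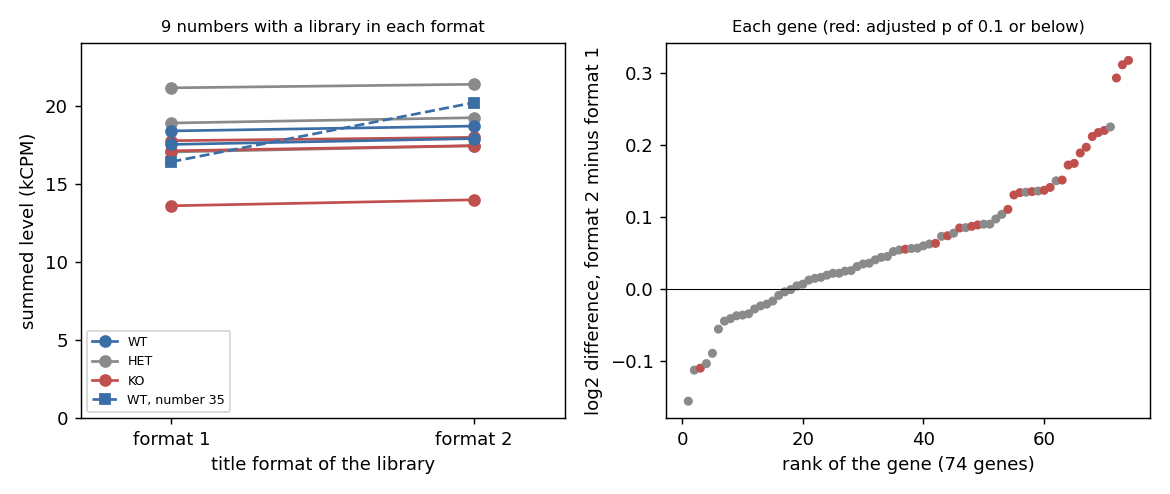
Left, summed level of the members (kCPM) in the first and second title format for the 9 numbers with both, coloured by genotype. Number 35 (dashed) goes from 16419 to 20208 CPM and the other 8 change little. Right, the log2 difference between formats of 74 members by rank, with those at an adjusted p of 0.1 or less in red (23 higher, 1 lower).

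Other gene lists of translation had medians near 0 or above in KO. Of all 17094 genes tested, 8312 were higher. Of 32 initiation and elongation factors 19 were higher and 13 lower, with a median log2 difference of 0.01. Of these factors Eif3a, the scaffold of initiation factor eIF3, alone passed an adjusted p of 0.1, where 1.15% of all genes did. It rose from 271 to 324 CPM in WT to 329 to 453 CPM in KO (0.39, SE 0.10, edgeR adjusted p = 0.0927). Of 34 ribosome biogenesis genes 24 were higher (median 0.09), and of 16 regulators of ribosomal protein synthesis 13 were higher (median 0.12), with 0 at an adjusted p of 0.1 or less in either list and 5 of each higher at an unadjusted edgeR p below 0.05, where 10.1% of all genes were. These lists hold longer transcripts, with median lengths of 1940, 2172 and 5259 bases, and their values here are given with no length trend taken out. The mitochondrial ribosomal protein genes, with a median length of 1253 bases, had 45 of 76 higher, a median of 0.05 and 0 at an adjusted p of 0.1 or less by edgeR, 3 being higher and 4 lower at an unadjusted p below 0.05, where 10.1% and 9.18% of all genes were.

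Of 13 p53 targets, a list that includes the member Rps27l, 7 were higher and 6 lower (median 0.03). Pmaip1, which encodes the apoptosis protein Noxa, rose, with 15.6 ± 3.496 CPM in WT and 24.8 ± 3.99 in KO (0.67, SE 0.17, edgeR adjusted p = 0.0981). It was the one that passed, where 1.15% of all genes did. A further list, of genes outside the name form, held 9 tested genes. It included paralogs such as Rpl7l1 and the pseudogene Rpl3-ps1, but not Rpsa or Rack1. Of these 9, 8 were lower (median -0.11), among them Rps27rt (-1.42, SE 0.55, edgeR adjusted p = 0.190) at 1.14 ± 0.785 and 0.424 ± 0.195 CPM. Only the pseudogene Rpl3-ps1 was higher (0.15, SE 0.34), at 0.426 ± 0.184 CPM in WT. Rps4x, the X-linked small subunit gene, was at 217 ± 22.1 and 216 ± 16.6 CPM (-0.01, SE 0.10, edgeR adjusted p = 0.977). Rack1, a scaffold protein of the small subunit listed in the table under its older symbol Gnb2l1, was at 1932 ± 143 and 1675 ± 236 CPM (-0.21, SE 0.10, edgeR adjusted p = 0.288).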

How the data were processed

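Skin RNA-Seq was analysed from 24 libraries. The values deposited by the authors are raw counts, whole numbers of reads per gene symbol. The submitters' processing notes name STAR and HTSeq, without versions, and hg19, although the symbols are those of mouse. The build, annotation and treatment of reads with several matches are therefore taken as not given in the sources used here. The authors used poly(A) selection and a directional kit.

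Libraries of one title number were summed to 15 columns. Genes passing filterByExpr (17094) were scaled by TMM and entered a robust quasi-likelihood fit (edgeR 4.0.16, R 4.3.3), all genotypes in one fit, adjusted by Benjamini-Hochberg over all genes. All 78 members passed that filter. Thresholds were an adjusted p of 0.1 and an absolute log2 fold change of 1. Formats were compared over 18 libraries with the number as block, since the 2 libraries of a number differed little in 8 of 9 numbers. DESeq2 1.42.0 and limma-voom (limma 3.58.1) were alternatives, with other scalings, filters, length offsets and leaving out each column. CPM are TMM-scaled.

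Transcript lengths and 50-base coding windows (searched on both strands of all annotated transcripts) came from GENCODE vM21, starts from RefSeq. The scripts were tested on simulated counts. Members and lists were chosen with earlier results of these data known. Values are given for members at an adjusted p of 0.1 or below, the 4 with the smallest p in each direction (KO vs WT), the 5 highest and lowest per length, the paralogs, the stalk genes, Rpl5, Rpl11 and Rpsa, the 3 most different each way between formats, the 3 most variable, and those at the count threshold. Some genes that this rule names are not reported here. Without molecular identifiers several reads can stem from 1 molecule, so the Wilson intervals are those of counting alone.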

Additional observations from a re-analysis of the deposited data

Results flagged for a closer look

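Of 96 groups of 5 columns examined (31 named members and their sum in each genotype), 3 held a column far from the others by Dixon's test at the 95% level, where chance gives about 1 in 20. Rpl35 in WT replicate 1 was at 81.0 CPM beside 30.9 to 44.3 CPM in the other WT columns (gap over range 0.733). Rps25 in WT replicate 1 was at 10.7 CPM beside 5.68 to 7.05 CPM (0.728). Rpl39l in WT replicate 4 was at 15.2 CPM beside 26.99 to 29.4 CPM (0.833). No explanation was tested for any of them.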

How the results depend on the processing

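No paired analysis was possible because the genotypes share no title number. For the formats, the fit without the replicate block gave 0 members at an adjusted p of 0.1 or below in place of 24, and length offsets gave 33 lower in place of 18. In what follows the share of all genes at an adjusted p of 0.1 or below stands after each count of members above 0 at that threshold. KO vs WT had 0 members at that threshold with the edgeR fit (1.15%), 14 with DESeq2 (8.71%), 4 with limma-voom (2.89%), 1 without a filter (0.613%), 3 in title format 2 alone (2.34%) and 10 with number 35 as 2 columns (7.18%). Rpl24 alone was also past a log2 fold change of 1 (1 member) with limma-voom and in format 2 alone. Leaving out a column gave 0 to 33 members at the adjusted threshold (33 without KO replicate 5, 10.9%, 24 without WT replicate 4, 9.74%, 6 without KO replicate 3, 4.27%, and 1 without KO replicate 2, 1.26%) and 0 to 1 past both thresholds (Rpl24, without KO replicate 3 or 5 or WT replicate 4). KO vs HET had 12 members with DESeq2 (4.84%), 2 with limma-voom (0.456%), 1 with total count scaling (0.515%), 1 with number 35 as 2 columns (0.511%), and 0 to 20 when leaving out a column (20 without KO replicate 5, 5.44%, 6 without WT replicate 4, 1.24%, 3 without HET replicate 4, 1.54%, and 2 each without KO replicate 2, 0.851%, or 3, 1.54%), with 0 to 1 past both. Its median went to -0.068 with length offsets. HET vs WT went to 0.15 (4 members lower) and the summed level to 0.11 (log2) in title format 1 alone, where the groups hold 3 columns each. Leaving out a column moved it to between -0.09 and 0.01, the upper value without WT replicate 1. The median of KO vs WT stayed between -0.31 and -0.11 over all 27 alternatives, and the summed level between -0.32 and -0.16. Of 826 values for named members, 47 were newly past the adjusted threshold and 29 in 8 genes had the other sign without passing it. The causes were not tested. For members with few counts, such as Rpl23a, Rpl24, Rpl38 and Rps29, small differences were not detectable at this depth.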
